A study of Mus musculus with 13 samples.

Results

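To follow the recruiting signals of the demyelinated mouse brain, the RNA of 10 chemokine ligands was traced in bulk RNA-seq data of brain hemispheres from 3 groups of mice. The ligands were found by their gene symbols, and each symbol belonged to 1 row among the 55401 gene rows of the table. They are 6 CC ligands (Ccl2, Ccl3, Ccl4, Ccl6, Ccl9 and Ccl12), 3 CXC ligands (Cxcl10, Cxcl16 and Cxcl12) and the CX3C ligand Cx3cl1. Of the 10, 9 passed the filter on low counts, which 14985 genes passed, and Ccl2 did not.

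All mice were males of 6 to 8 weeks of age by the labels, though another source gives a somewhat higher age. They were wild-type mice of the strain C57BL/6J. The CPZ group (n = 4) had eaten chow with 0.3% cuprizone, a copper chelator that injures mature oligodendrocytes and strips myelin from the brain, for 4 weeks and was collected at week 4. The RCV group (n = 4) had eaten the same chow for 4 weeks and control chow for 2 more weeks, in which myelin can form again, and was collected at week 6. The CTL group (n = 5) had eaten control chow for 6 weeks and was also collected at week 6. CPZ was thus collected 2 weeks before the other groups. The titles of the RCV libraries carry the prefix Veh, which the labels do not explain, and the group sizes here follow the titles and the account of this assay in the paper, while the protocol text gives smaller ones. One hemisphere of each brain was frozen for this assay, after the vessels had been rinsed with saline, but which libraries came from separate mice is not given, so that p-values measure the spread between libraries, which may in part be technical.

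Chemokines are small secreted proteins that guide cells along gradients by binding receptors coupled to G proteins. Their classes are named for the spacing of the first cysteines of the protein. In the brain, CC ligands and the interferon-inducible CXC ligands are low at rest and are made by microglia, astrocytes and invading myeloid cells during inflammation, and they attract monocytes, microglia and T cells. Cxcl12 and Cx3cl1 behave otherwise: they are made at rest, Cxcl12 by vessels, meninges and some neurons, and Cx3cl1 mainly by neurons, whose membrane-bound Cx3cl1 signals to Cx3cr1 on microglia.

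Libraries held between 4605076 and 8197268 counts, with medians of 6545092 in CTL, 7468850.5 in CPZ and 5783433 in RCV, so a ligand with few counts was measured least precisely in RCV. Levels are given as CPM, the counts scaled by library size and TMM factor, or as TPM, which is also divided by transcript length and is the only scale used to compare ligands with each other. The tissue was hemisphere RNA, in which fewer cells of a type and less RNA per cell cannot be told apart. The labelled tissue carried its defining markers, and the 7 neuron markers summed to between 4336 and 5590 CPM in every library.

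Most of the CC ligands sit in 2 runs of neighbouring genes on chromosome 11 (mm10, GENCODE annotation). The first run holds Ccl2 (82035571 to 82037453, plus strand), Ccl7, Ccl11, Ccl12 (82101845 to 82103400, plus strand), Ccl8 and Ccl1. The second holds Ccl5, Ccl9 (83572919 to 83578636, minus strand), Ccl6 (83587882 to 83593087, minus strand), Ccl3 (83647844 to 83649355, minus strand) and Ccl4 (83662584 to 83664683, plus strand). Cxcl16 lies apart from both runs on chromosome 11 (70453983 to 70459984, minus strand), Cxcl10 on chromosome 5 (92346638 to 92348889, minus strand), Cxcl12 on chromosome 6 (117168535 to 117181367, plus strand) and Cx3cl1 on chromosome 8 (94772009 to 94782427, plus strand). Neighbours differed in level. In the first run, the mean level in CPZ was 19.8 TPM for Ccl12 and 3.83 TPM for Ccl2, against 0.825 TPM for Ccl8, 0.673 TPM for Ccl7 and 0 for Ccl11 and Ccl1. In the second run, it was 54.0 TPM for Ccl6, 38.3 TPM for Ccl3, 22.3 TPM for Ccl9 and 10.4 TPM for Ccl4, against 3.56 TPM for Ccl5.

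The ligands were distinguishable from each other at the read length used. No stretch of 50 bases of the annotated transcripts of Ccl2, Ccl3, Ccl4, Ccl6, Ccl12, Cxcl12 or Cx3cl1 occurred in a transcript of another gene. Of the 50-base stretches of Cxcl16, 16.9% also lie in Zmynd15 on the opposite strand, which held 0 to 6 counts in CTL, 5 to 9 in CPZ and 0 to 7 in RCV. Of those of Cxcl10, 3.59% lie in Art3 on the opposite strand, with 12 to 19, 9 to 25 and 12 to 23 counts. Of those of Ccl9, 1.97% lie in a repeated stretch that other genes carry. Gm17268 and E230016K23Rik, which overlap Ccl2 and Ccl6 on the opposite strand, held at most 1 count in any library. Whether strand was used in counting is not given in the sources used here.

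The promoters of 7 of the 10 ligands were at hand from RefSeq (GRCm38.p6), each 250 bases before and 50 bases after the start that RefSeq gives. RefSeq and GENCODE place some starts apart: the RefSeq start of Cx3cl1, and with it the match in its window, lies inside the gene as GENCODE annotates it, and that of Ccl3 lies upstream of the gene. They were searched on both strands for GGNNNTTCC, the end of a common NF-kB site (found in 18.5% of 32817 promoters of this length), GAAANNGAA, the beginning of an interferon-stimulated response element (8.55%), and CCAAT (37.4%). The first was found in 4 of the 7 (Ccl9, Ccl12, Cxcl10 and Cx3cl1), the second in 2 (Ccl3 and Cxcl10) and the third in 1 (Cxcl10). Matches are in capitals in the sequences that follow, and are matches of letters, not measured binding. Cxcl10 is shown because it alone held all 3 motifs, Ccl12 and Ccl3 stand for the 2 runs on chromosome 11, and Cx3cl1 is shown as a ligand of the resting brain that also held a match.
Cxcl10, chr5:92348840-92349139, minus strand: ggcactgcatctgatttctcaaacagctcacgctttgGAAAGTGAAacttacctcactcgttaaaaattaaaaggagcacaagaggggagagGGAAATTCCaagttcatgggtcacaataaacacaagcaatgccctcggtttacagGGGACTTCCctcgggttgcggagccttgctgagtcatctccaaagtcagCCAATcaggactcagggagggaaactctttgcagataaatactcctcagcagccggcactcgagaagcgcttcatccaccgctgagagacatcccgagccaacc
Ccl12, chr11:82101595-82101894, plus strand: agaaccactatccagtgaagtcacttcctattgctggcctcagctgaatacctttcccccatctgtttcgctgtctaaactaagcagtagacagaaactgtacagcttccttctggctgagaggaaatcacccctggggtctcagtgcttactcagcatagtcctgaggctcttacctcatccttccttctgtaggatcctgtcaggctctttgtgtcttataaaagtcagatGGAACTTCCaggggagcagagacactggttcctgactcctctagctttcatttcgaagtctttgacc
Ccl3, chr11:83649329-83649628, minus strand: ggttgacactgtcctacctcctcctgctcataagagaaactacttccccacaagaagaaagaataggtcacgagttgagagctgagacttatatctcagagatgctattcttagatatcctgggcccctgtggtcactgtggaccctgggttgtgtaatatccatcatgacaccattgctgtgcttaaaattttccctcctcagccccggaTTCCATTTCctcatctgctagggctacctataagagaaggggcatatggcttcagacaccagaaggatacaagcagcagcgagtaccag
Cx3cl1, chr8:94771930-94772229, plus strand: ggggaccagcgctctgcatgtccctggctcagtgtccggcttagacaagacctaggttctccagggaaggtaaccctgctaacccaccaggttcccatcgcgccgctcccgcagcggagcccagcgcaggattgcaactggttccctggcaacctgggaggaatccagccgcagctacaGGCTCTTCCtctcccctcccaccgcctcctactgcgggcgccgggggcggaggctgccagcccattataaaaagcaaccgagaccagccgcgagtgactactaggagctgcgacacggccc
In Cxcl10 the NF-kB matches GGAAATTCC and GGGACTTCC begin 158 and 103 bases before the RefSeq start, the first of which the motif matches on both strands, and the interferon match GAAAGTGAA begins 213 bases before it. The Ccl12 match GGAACTTCC is likewise matched on both strands and ends 9 bases before the start. In Ccl3 the interferon motif lies on the opposite strand, so that the sequence shows its reverse complement, TTCCATTTC.

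Comparing CPZ with CTL asks which ligands were raised at peak demyelination. Ccl3, Ccl4, Ccl6, Ccl9, Ccl12, Cxcl10 and Cxcl16 were all higher in CPZ (7 of the 9 ligands tested, against 7.66% of all 14985 genes called higher), and none was called lower (against 2.5%). In these 7 ligands every CPZ library lay above every CTL library, a separation that 8.25% of all genes tested showed. Ccl3, Ccl4, Ccl12 and Cxcl10 passed the filter on low counts only through their CPZ libraries. These counts of calls and separations are thus tilted toward CPZ. Tests are edgeR quasi-likelihood tests with Benjamini-Hochberg adjustment over all genes tested, called at an adjusted p below 0.05, and log2 fold changes are given with their standard error. The median log2 fold change of the 9 ligands was 4.19, against -0.02 over all genes tested.

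Ccl2 and Ccl12 are among the mouse ligands of Ccr2, a receptor through which monocytes are drawn out of the blood. Ccl2 had 0 counts in all 5 CTL libraries, 16, 12, 4 and 5 counts in the CPZ libraries and 0, 1, 0 and 0 counts in the RCV libraries. CPZ did not overlap the other groups. Relative to library size, the 37 CPZ counts were 13.3 times a limit of 3 counts over the CTL group. The exact 95% counting interval of the ratio to the 0 counts of CTL has its lower end at 10.3. On the log2-CPM scale, the mean was 2.19 higher in CPZ than in CTL (4 of 4 CPZ libraries higher, exact two-sided permutation test, p = 0.0159, the smallest this design allows, adjusted p = 0.0429). Against RCV it was 2.04 higher (exact p = 0.0286, the smallest for 4 against 4, adjusted p = 0.0429), and the ratio of counts was 28.0 (95% counting interval 4.72 to 1136). The prior count of 2 in log2-CPM lifts libraries with 0 counts to a floor, so both log2 differences are smaller than the ratios of counts. The adjusted p-values of Ccl2 cover its 3 comparisons alone and not all genes tested, unlike those of the other ligands.

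Ccl12 had 0, 0, 2, 1 and 0 counts in CTL, 38, 30, 12 and 26 in CPZ and 6, 3, 1 and 5 in RCV. All CPZ libraries were above all others, and RCV replicate 3, with 1 count, lay within the range of CTL. Over the groups, the CPZ level was 38.2 times that of CTL (95% counting interval 12.7 to 188, with 3 counts in CTL), and the log2 fold change was 4.99 ± 0.62 (adjusted p = 3.98e-05).

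Ccl3 and Ccl4, also called MIP-1 alpha and beta, attract monocytes, macrophages and T cells, and Ccl3 binds Ccr1. Ccl3 measured 0, 0.600, 0.154, 0 and 0.550 CPM in the CTL libraries, 15.6, 16.7, 4.99 and 8.01 CPM in the CPZ libraries and 2.49, 2.27, 1.35 and 1.95 CPM in the RCV libraries. The 3 groups did not overlap, and CPZ replicates 1 and 2 were well above replicates 3 and 4. Its log2 fold change between CPZ and CTL, 5.41 ± 0.56 (adjusted p = 1.05e-05), was the largest of the 9.

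Ccl4 had 1, 0, 0, 1 and 1 counts in CTL, 22, 21, 16 and 16 in CPZ and 7, 6, 3 and 2 in RCV. The groups again did not overlap. The CPZ level was 27.0 times that of CTL (95% counting interval 8.89 to 134), and the log2 fold change was 4.50 ± 0.48 (adjusted p = 9.43e-06).

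Ccl6 and Ccl9 are rodent ligands of Ccr1 made by myeloid cells. Ccl6 measured 1.22, 0.600, 0.768, 0.764 and 1.10 CPM in CTL, 41.9, 31.0, 16.2 and 25.3 CPM in CPZ and 4.40, 7.13, 2.69 and 8.02 CPM in RCV. The groups stood apart, with a mean of 28.6 ± 10.8 CPM (SD, n = 4) in CPZ against 0.891 ± 0.260 CPM (SD, n = 5) in CTL. The log2 fold change was 4.97 ± 0.37 (adjusted p = 1.16e-06).

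Ccl9 measured 0.952, 1.35, 0.922, 0.459 and 0.734 CPM in CTL, 13.3, 13.6, 9.99 and 9.17 CPM in CPZ and 2.20, 3.73, 1.54 and 3.47 CPM in RCV. In CPM, CPZ was far above the others and RCV just above the highest CTL library. Its log2 fold change, 3.66 ± 0.28, was smaller than that of the other CC ligands tested and had the lowest adjusted p of the 9 ligands, 5.29e-07.

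Cxcl10 is induced by interferons and attracts T cells through Cxcr3. It measured 0.544, 0.750, 0.154, 0 and 0.367 CPM in CTL, 10.2, 6.20, 6.94 and 4.91 CPM in CPZ and 2.05, 1.62, 1.15 and 1.30 CPM in RCV. In CPM no group overlapped another, and the log2 fold change between CPZ and CTL was 4.19 ± 0.41 (adjusted p = 3.89e-06).

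Cxcl16 is made as a membrane protein that also takes up oxidised lipids, and its shed form attracts cells with Cxcr6. It measured 1.50, 0.150, 1.54, 1.53 and 1.10 CPM in CTL, 9.65, 7.41, 8.05 and 5.55 CPM in CPZ and 3.96, 3.40, 1.54 and 3.69 CPM in RCV. In CPM, CPZ stood clear of the rest, while RCV replicate 3 was level with the highest CTL libraries. With a log2 fold change of 2.69 ± 0.35 (adjusted p = 5.54e-05), it had the smallest difference of the 7.

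Cxcl12 is needed for the placing of precursor cells and for vessel upkeep, and signals through Cxcr4. It measured 62.5, 83.3, 78.4, 71.4 and 74.3 CPM in CTL, 67.1, 59.6, 73.1 and 72.0 CPM in CPZ and 67.3, 67.6, 67.9 and 64.8 CPM in RCV. The groups overlapped, and the log2 fold change of CPZ against CTL, -0.12 ± 0.08, did not pass the test (adjusted p = 0.424, 95% interval -0.28 to 0.03).

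Cx3cl1, or fractalkine, measured 619, 592, 669, 539 and 597 CPM in CTL, 541, 545, 527 and 556 CPM in CPZ and 587, 494, 508 and 602 CPM in RCV. The highest CPZ library was 1.05 times the lowest, and CPZ overlapped the lower end of CTL. The log2 fold change of CPZ against CTL was -0.15 ± 0.07 and missed the threshold after adjustment (unadjusted p = 0.0482, adjusted p = 0.221, 95% interval -0.29 to -0.01).

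**Figure D1:**
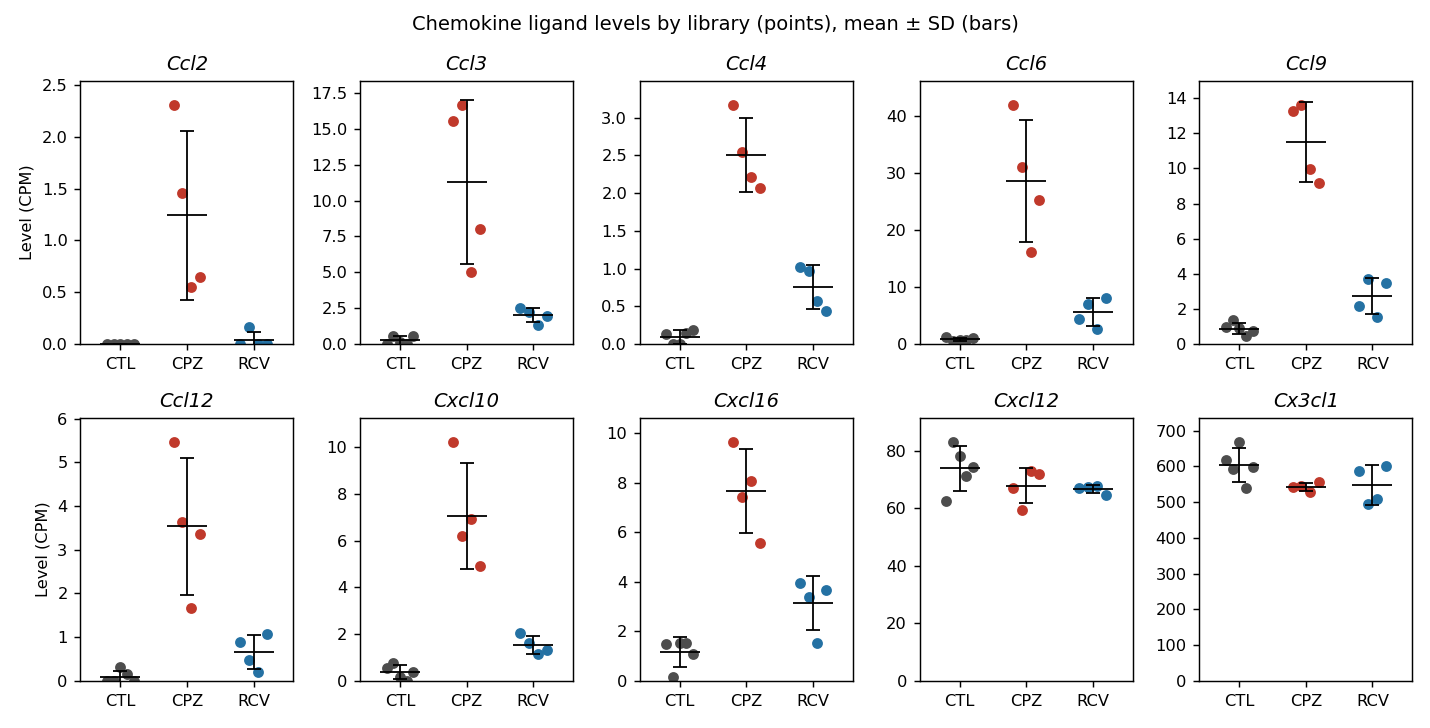
Level of each chemokine ligand in CPM (vertical axes, linear, from 0) in the CTL (n = 5), CPZ (n = 4) and RCV (n = 4) libraries. Points are libraries in replicate order, the long bar is the mean and the error bar the SD. For the 8 ligands from Ccl2 to Cxcl16 every CPZ point is above every CTL point, and Cxcl12 and Cx3cl1 overlap between the groups.

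Comparing RCV with CTL asks whether the ligands were back at control level after 2 weeks of control chow. It shares the 5 CTL libraries with the comparison of CPZ and CTL. Of the 9 ligands tested, 1 was called higher, Ccl6 (against 0.36% of all genes), and none was called lower (against 0.0133%). At an unadjusted p below 0.05, 7 of the 9 differed, against 6.2% of all genes, all but Cxcl12 and Cx3cl1. In 6 (Ccl3, Ccl4, Ccl6, Ccl9, Cxcl10 and Cxcl16) every RCV library lay above every CTL library, against 2.21% of all genes. For Cxcl16 the lowest RCV and the highest CTL library both rounded to 1.54 CPM. On TPM, RCV and CTL overlapped for Ccl9 (lowest RCV 1.89, highest CTL 4.23), Cxcl10 (2.86 and 3.49) and Cxcl16 (1.27 and 2.54).

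Ccl6 was 2.60 ± 0.45 higher on the log2 scale (adjusted p = 0.0247), with 14 to 44 counts in RCV against 4 to 9 in CTL. This call was lost when any 1 of the 5 CTL libraries, RCV replicate 2 or RCV replicate 4 was left out. With each library left out in turn, its log2 fold change ran from 2.40 to 2.82. Ccl9 (1.59 ± 0.33, adjusted p = 0.0556) and Ccl4 (2.84 ± 0.61, adjusted p = 0.0628) lay just past the threshold. Ccl3 (2.96 ± 0.71, adjusted p = 0.132), Cxcl10 (2.03 ± 0.51, adjusted p = 0.142), Cxcl16 (1.43 ± 0.39, adjusted p = 0.207) and Ccl12 (2.60 ± 0.85, adjusted p = 0.378) missed it, with differences that were not small. The RCV libraries held 7 to 17 counts on Ccl3, 2 to 7 on Ccl4, 8 to 23 on Ccl9, 1 to 6 on Ccl12, 6 to 14 on Cxcl10 and 8 to 27 on Cxcl16. At these counts a missed threshold does not show a return to the control level. Other tests drew the line elsewhere, and the DESeq2 Wald test called 5 of the 9 (Ccl3, Ccl6, Ccl9, Cxcl10 and Cxcl16), limma-voom called 0, and without the filter on low counts edgeR called Ccl9 and not Ccl6. Cxcl12 (-0.14 ± 0.08, adjusted p = 0.875) and Cx3cl1 (-0.14 ± 0.07, adjusted p = 0.851) were not called, with 95% intervals of -0.30 to 0.01 and -0.28 to 0.00.

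Comparing CPZ with RCV asks how far the ligands fell after cuprizone was withdrawn. This comparison shares the CPZ and RCV libraries with the others and is not independent of them. Of the 9 ligands 7 had a higher call in CPZ (against 5.13% of all genes), none was called lower (against 1.88%), and in all 7 every CPZ library lay above every RCV library (against 8.26%). Ccl3, Ccl4, Ccl12 and Cxcl10 passed the filter only through their CPZ libraries, which tilts these counts toward CPZ. The separation is in CPM, and the TPM values of Cxcl16 overlapped (lowest CPZ 4.22, highest RCV 5.07). The log2 fold changes were 2.46 ± 0.44 for Ccl3 (adjusted p = 0.00316), 1.65 ± 0.37 for Ccl4 (adjusted p = 0.0116), 2.37 ± 0.31 for Ccl6 (adjusted p = 0.00048) and 2.07 ± 0.26 for Ccl9 (adjusted p = 0.000299). They were 2.39 ± 0.50 for Ccl12 (adjusted p = 0.00737), 2.16 ± 0.36 for Cxcl10 (adjusted p = 0.00149) and 1.26 ± 0.33 for Cxcl16 (adjusted p = 0.0289). The Cxcl16 call was lost without CPZ replicate 1, 2 or 3 or RCV replicate 3, with a replicate block and in each of the fits of limma on TPM. Cxcl12 (0.02 ± 0.08, adjusted p = 0.933) and Cx3cl1 (-0.01 ± 0.08, adjusted p = 0.952) did not pass, and their 95% intervals ran from -0.14 to 0.19 and from -0.16 to 0.13.

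**Figure D2:**
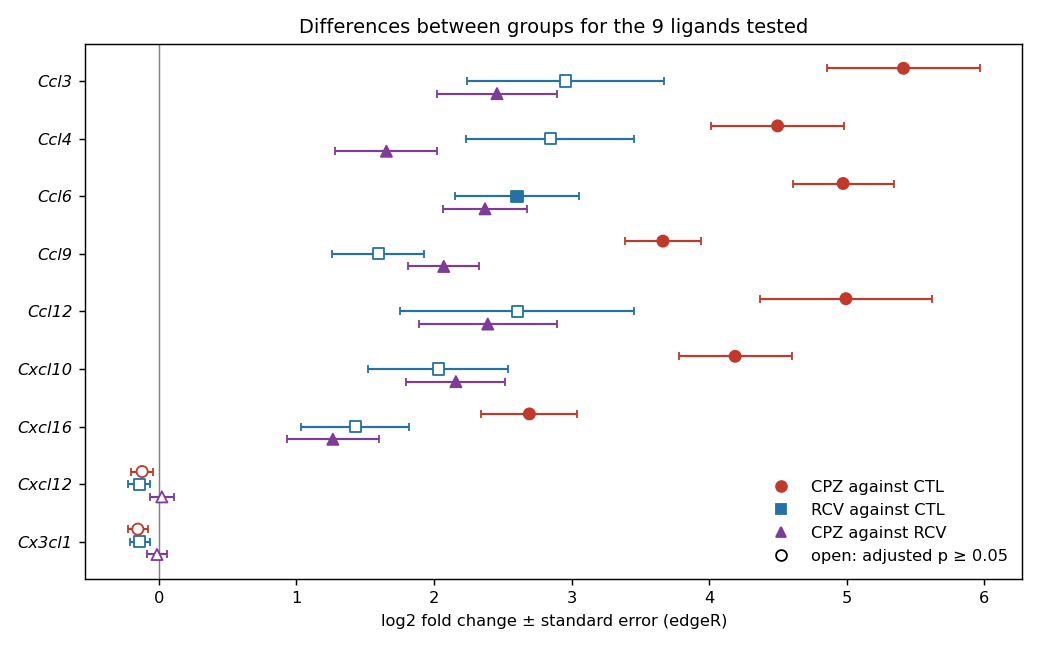
Log2 fold change (horizontal axis) with its standard error for the 9 ligands tested, for CPZ against CTL (circles), RCV against CTL (squares) and CPZ against RCV (triangles). Filled symbols are called at an adjusted p below 0.05: 7 circles, 1 square (Ccl6) and 7 triangles, with Cxcl12 and Cx3cl1 near 0 in all 3.

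Placed between the other groups on the log2-CPM scale, RCV kept a mean of 0.497 of the CPZ change for Ccl3, 0.492 for Ccl4, 0.487 for Ccl6, 0.399 for Ccl9, 0.383 for Ccl12, 0.442 for Cxcl10 and 0.514 for Cxcl16. The 4 RCV libraries spread widely around these means, from 0.120 to 0.578 for Ccl12 and from 0.191 to 0.660 for Cxcl16, so the ligands cannot be ranked by this measure. On linear CPM the shares were lower, between 0.159 (Ccl3) and 0.305 (Cxcl16).

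Within the CPZ group, replicates 1 and 2 were higher than replicates 3 and 4 for 6 of the 8 ligands from Ccl2 to Cxcl16, while for Cxcl10 and Cxcl16 replicate 3 lay above replicate 2. Replicate 1 was the highest library for 6 and replicate 2 for 2, while replicate 3 was the lowest for 4 (Ccl2, Ccl3, Ccl6 and Ccl12) and replicate 4 for 4 (Ccl4, Ccl9, Cxcl10 and Cxcl16). The coefficient of variation among CPZ libraries ran from 19.5% for Ccl4 and 19.6% for Ccl9 to 50.4% for Ccl3 and 65.9% for Ccl2, against 9.09% for Cxcl12 and 2.20% for Cx3cl1. In RCV, replicate 3 was the lowest library for 6 of the 8. It also had the lowest level of microglia markers of the RCV libraries (4.86 in mean log2-CPM), and the part of that level in these differences was not tested.

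On the TPM scale, which allows ligands to be compared, the CTL brain was dominated by Cx3cl1. It measured 401 ± 27.9 TPM (SD, n = 5), followed by Cxcl12 at 40.0 ± 3.26, and no other ligand had a mean above 2.30 (Ccl9). The libraries of Cx3cl1, Cxcl12 and the next ligand did not overlap, whereas the order among the 8 lower ligands was not resolved, since each overlapped its neighbour. In CPZ, Ccl6 (54.0 ± 20.4 TPM, n = 4) and Ccl3 (38.3 ± 19.6) stood beside Cxcl12 (34.8 ± 2.89), each overlapping the next. Below Cxcl12 and without overlap with it came Ccl9 (22.3 ± 6.80), Ccl12 (19.8 ± 8.64), Cxcl10 (15.9 ± 4.53), Ccl4 (10.4 ± 2.06), Cxcl16 (7.38 ± 2.76) and Ccl2 (3.83 ± 2.63), in which each overlapped the next, and Cx3cl1 stayed apart at the top (351 ± 7.88). Compared within each CPZ library, Ccl6 was above Ccl3, Cxcl10 above Ccl4, Ccl4 above Cxcl16 and Cxcl16 above Ccl2 in 4 of 4. Ccl12 was above Cxcl10 in 3 of 4, and Ccl3 above Cxcl12 and Ccl9 above Ccl12 in 2 of 4. In RCV, Cx3cl1 (362 ± 42.1) and Cxcl12 (35.7 ± 2.51) again stood alone above the rest, with Ccl6 next at 8.77 ± 3.89.

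Summed over the 8 ligands from Ccl2 to Cxcl16, a set picked by its values and so without a test, the level was 6.86 to 11.3 TPM in the CTL libraries. It was 246, 199, 106 and 136 TPM in CPZ replicates 1 to 4, and 41.4, 39.0, 20 and 43.3 TPM in the RCV libraries. Their share of the summed TPM of all 10 ligands was 2.02% on average in CTL, 30.1% in CPZ and 8.22% in RCV. The share of Cx3cl1 was 89.1%, 63.5% and 83.5%.

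**Figure D3:**
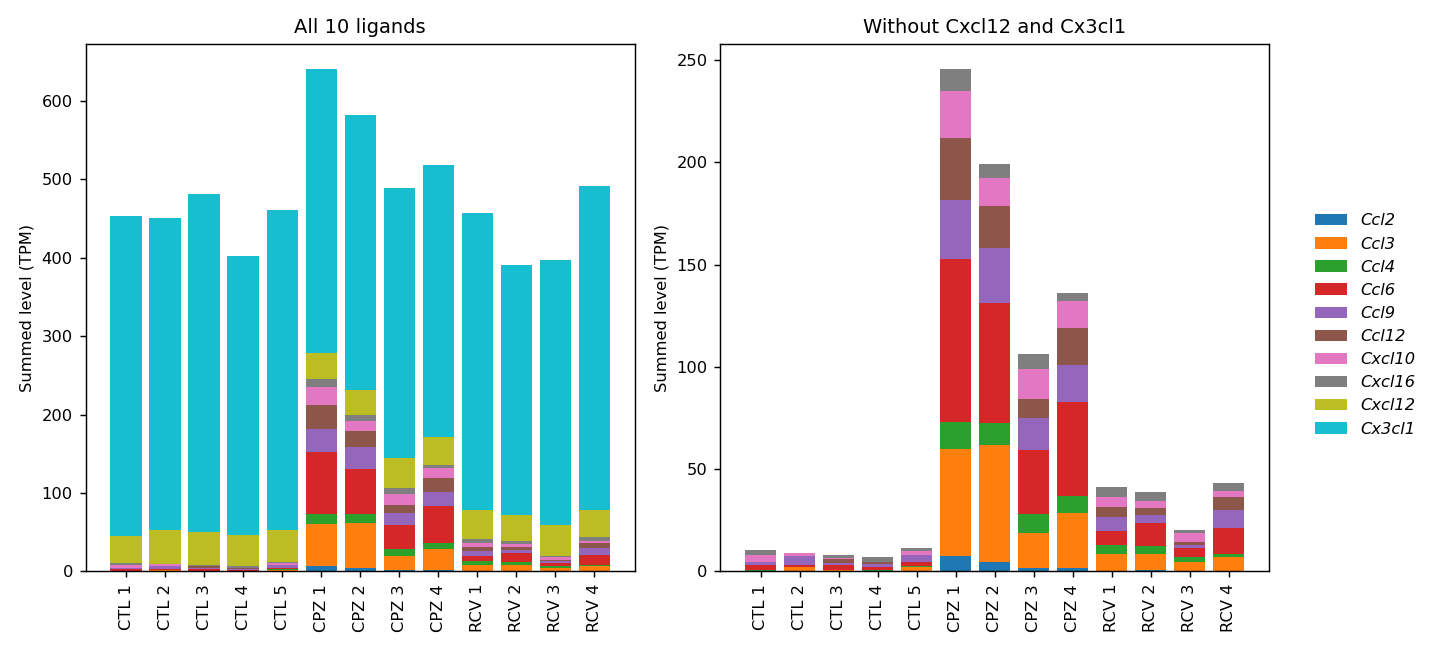
Summed level of the ligands in TPM (vertical axes, linear, from 0) in each library, stacked by ligand, for all 10 ligands (left) and without Cxcl12 and Cx3cl1 (right). The right panel reaches 246 TPM in CPZ replicate 1 and stays at or below 43.3 TPM in RCV and 11.3 TPM in CTL.

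Microglia markers moved together with the ligands. All 16 markers, among them Csf1r, the receptor that keeps microglia alive, and the complement gene C1qa, had higher calls in CPZ against both CTL and RCV, with a median log2 fold change of 2.68 and 1.72. Their mean log2-CPM was 4.15 to 4.41 in CTL, 7.28, 7.16, 6.13 and 6.55 in CPZ replicates 1 to 4, and 5.03, 5.24, 4.86 and 5.23 in the RCV libraries, with no overlap between groups. CPZ replicates 1 and 2 were the highest in these markers, as in 6 of the 8 ligands, and RCV replicate 3 was the lowest of its group. Between RCV and CTL 1 marker, Ctss, was called by edgeR and 11 by DESeq2, with 13 of 16 at an unadjusted edgeR p below 0.05. The markers did not move evenly. Their log2 fold changes ran from 0.97 to 3.68 for CPZ against CTL and from -0.06 to 1.40 for RCV against CTL. Tmem119 (mean log2-CPM 4.20 in CTL and 4.14 in RCV) and P2ry12 (4.52 and 4.54) were near the control level in RCV. Apart from the median over the markers, other choices of marker were not tested.

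Measured against this marker level in the same library, 3 ligands passed the test between CPZ and CTL, but only with all 9 ligands in the adjustment. The level relative to the markers was 1.84 higher than in CTL for Ccl3, 2.02 for Ccl6 and 0.81 for Ccl9 on the log2 scale (4 of 4 CPZ libraries above all CTL libraries, exact two-sided permutation test, p = 0.0159, the smallest possible, adjusted p = 0.0476 over 27 tests). Adjusted over 21 tests, without Cxcl12 and Cx3cl1, a choice made after seeing the data, the lowest exact adjusted p was 0.0667 and 0 ligands passed in any comparison. Cxcl10 (1.02, exact adjusted p = 0.107), Ccl12 (0.71, exact adjusted p = 0.114), Ccl4 (0.30, exact adjusted p = 0.351) and Cxcl16 (0.05, exact adjusted p = 0.984) did not pass. No CTL library held more than 1 count on Ccl4 or 2 counts on Ccl12. At such counts the prior count of 2 in log2-CPM narrows the difference from CPZ, while the markers, with more counts, are narrowed less. For Ccl4 and Ccl12 a missed threshold thus does not show a rise equal to that of the markers. Ccl4 and Ccl12 passed on log2(TPM + 0.1), at 2.38 and 3.38 (exact adjusted p = 0.0429), where Ccl9 did not (0.80, exact adjusted p = 0.176). Cxcl12 and Cx3cl1, whose own levels were not called, differed by -2.65 and -2.68 relative to the markers (exact adjusted p = 0.0476 over the 27 tests). With their own levels nearly flat, these differences follow from the rise of the markers and are no result of their own. Their low p-values still entered the adjustment under which Ccl3, Ccl6 and Ccl9 passed.

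In RCV, Ccl3 and Ccl6 were 1.33 and 1.37 higher than in CTL relative to the markers (exact adjusted p = 0.0476 over the 27 tests and 0.0667 over the 21), with all 4 RCV libraries above the CTL libraries. With the median in place of the mean over the markers, Ccl4 (1.09), Ccl9 (1.03) and Cxcl10 (1.26) also passed (exact adjusted p = 0.0357). On log2(TPM + 0.1), Ccl6 did not pass (1.32, exact adjusted p = 0.0918) and Ccl4 did (2.33, exact adjusted p = 0.0429). The share of the CPZ change left in RCV was 0.332 for the mean log2-CPM of the markers. Every marker held at least 20 counts in every library, so the prior count weighs less on this share than on those of the low ligands. On linear CPM, where the ligand shares were lower, no share of the markers was computed. Their summed level was 412 to 502 CPM in CTL, 1579 to 3420 CPM in CPZ and 652 to 902 CPM in RCV.

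**Figure D4:**
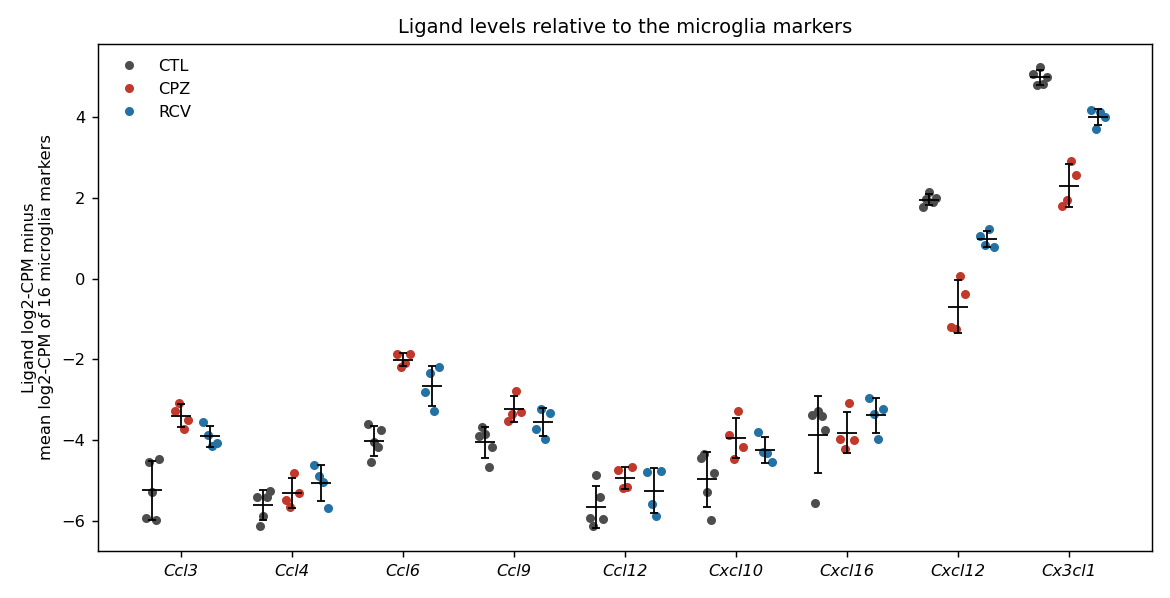
Log2-CPM of each ligand minus the mean log2-CPM of the 16 microglia markers in the same library (vertical axis), for CTL (n = 5), CPZ (n = 4) and RCV (n = 4). Points are libraries, bars the mean and SD. Ccl3, Ccl6 and Ccl9 are higher in all CPZ libraries than in all CTL libraries, and Cxcl12 and Cx3cl1, whose own levels were not called, are lower.

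Markers of blood cells were mostly near 0. Among 6 blood monocyte markers, 4 (Ly6c2, Plac8, Chil3 and Ccr2) held at most 8 counts in any library. Of the 2 tested, Vcan was not called and Fn1, which vessel and other cells also make, was higher in CPZ (log2 fold change 1.53 ± 0.23, adjusted p = 0.000887). The summed level of the 6 was 72.5 to 107 CPM in CTL, 127 to 247 in CPZ and 84.9 to 120 in RCV, nearly all of it from Fn1 and Vcan. T cell markers other than Cd4 held at most 8 counts, and none was called (1 of 6 tested, unadjusted 0, with 0 also by DESeq2 and limma-voom). Cd4, at 13 to 148 counts in CTL, 32 to 102 in CPZ and 0 to 94 in RCV, overlapped between all groups. Neutrophil markers summed to 0 to 5 counts in CPZ, against up to 75 in CTL and 94 in RCV, and none could be tested. Border macrophage markers summed to 4.21 to 10.5, 6.46 to 11.5 and 4.86 to 11.9 CPM in CTL, CPZ and RCV, with 0 of 2 tested called, 0 also by the other tools and 0 at an unadjusted p below 0.05.

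Astrocytes are another source of Ccl2 and Cxcl10. Of 7 astrocyte markers, 4 were higher in CPZ (Gfap, Aqp4, Slc1a3 and Aldh1l1), led by Gfap at 2.43 ± 0.15 (adjusted p = 5.29e-07), and Gfap and Aqp4 were higher in RCV than in CTL (1.80 ± 0.15 and 0.44 ± 0.09, adjusted p = 0.000109 and 0.0384). The 7 oligodendrocyte markers were all lower in CPZ than in CTL, with a median log2 fold change of -1.51, and none was called in RCV. No neuron, choroid plexus or hippocampus marker was called by edgeR, DESeq2 or limma-voom in any comparison, with 0 below an unadjusted p of 0.05. The choroid plexus markers still spread widely, from 417 to 2731 summed CPM in CTL, 612 to 2332 in CPZ and 12.7 to 1422 in RCV, with a median log2 fold change of -1.21 for RCV against CTL and 1.43 for CPZ against RCV. Endothelial and mural markers, which include cells that make Cxcl12, gave 1 call, Cldn5 lower in RCV than in CTL (-0.68 ± 0.12, adjusted p = 0.0263), and leptomeninges markers gave 1 by edgeR, Col1a1 lower in CPZ than in RCV (-1.89 ± 0.50, adjusted p = 0.0396). The part of any of these cells in the ligand levels was not tested.

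The receptors of these ligands were unevenly represented. Of 17 signalling chemokine receptors, 2 passed the filter and both were higher in CPZ than in CTL. Cx3cr1, the fractalkine receptor of microglia, measured 45.5 to 56.4 CPM in CTL, 214, 184, 112 and 140 CPM in CPZ and 62.2 to 76.6 CPM in RCV, and its log2 fold change between CPZ and CTL was 1.72 ± 0.15 (adjusted p = 6.52e-06). Cxcr4, the receptor of Cxcl12, measured 0.550 to 3.15 CPM in CTL, 6.05, 4.25, 3.89 and 2.84 CPM in CPZ and 2.69 to 4.34 CPM in RCV, so that CPZ and CTL overlapped, with a log2 fold change of 1.21 ± 0.33 (adjusted p = 0.0251). Without CTL replicate 4, CPZ replicate 1 or CPZ replicate 2, 1 of the 2 was called. Against RCV, Cx3cr1 was also higher in CPZ (1.24 ± 0.16, adjusted p = 0.000568), and Cxcr4 did not pass (0.37 ± 0.33, adjusted p = 0.611). Between RCV and CTL none was called by edgeR, DESeq2 or limma-voom, with 2 of 2 at an unadjusted p below 0.05, and 1 was called in a fit of only the 2 groups compared.

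Other partner receptors of the raised ligands were at the limit of detection, and are named here after their values were seen. Ccr2, for Ccl2 and Ccl12, held 0 to 5 counts in CTL, 0 to 2 in CPZ and 0 to 4 in RCV. Ccr1, for Ccl3, Ccl6 and Ccl9, held 0 to 3, 2 to 5 and 0 to 2. Cxcr3, for Cxcl10, held 0 to 1, 0 to 3 and 0 to 2, and Cxcr6, for Cxcl16, held 0 to 1, 0 to 3 and 0 to 1. They were below the filter and were not tested.

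Scavenging and atypical receptors bind chemokines without signalling as the others do and remove or present them. Of 5, 4 were tested and 0 called in any comparison by edgeR, DESeq2 or limma-voom, with 1 at an unadjusted p below 0.05 between CPZ and RCV and 0 in the other comparisons. Ackr3, the second receptor of Cxcl12, was at 8.15 ± 0.932 CPM (SD, n = 5) in CTL and 8.14 ± 1.50 CPM (SD, n = 4) in CPZ. Ackr1, found on vessels and red cells, was at 25.5 ± 6.33 and 23.3 ± 1.09 CPM.

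Enzymes that cut chemokines include the sheddases Adam10 and Adam17, which release membrane-bound Cx3cl1 and Cxcl16. Of 6 such enzymes 5 were tested, and 3 were higher in CPZ than in CTL: Adam10 by 0.29 ± 0.06 (adjusted p = 0.00419), Adam17 by 0.66 ± 0.12 (adjusted p = 0.00114) and Mmp2 by 0.80 ± 0.24 (adjusted p = 0.0459). Adam10 and Adam17 were also higher than in RCV, and none was called between RCV and CTL by edgeR, DESeq2 or limma-voom, with 0 at an unadjusted p below 0.05. Mmp12, too low to be tested, held 0 to 1 counts in CTL, 5 to 16 in CPZ and 2 to 9 in RCV.

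NF-kB and interferon factors drive many chemokine genes. Of 10 regulators, all tested, 5 were higher in CPZ than in CTL and none lower, and the median log2 fold change was 0.62. Irf7, which amplifies the interferon response, was at 1.63 to 2.85 CPM in CTL, 6.38 to 13.1 CPM in CPZ and 3.37 to 4.99 CPM in RCV, with a log2 fold change of 2.03 ± 0.24 (adjusted p = 2.38e-05). Nfkb2 (1.33 ± 0.26, adjusted p = 0.00244), Irf9 (0.78 ± 0.13, adjusted p = 0.000689), Rel (0.62 ± 0.16, adjusted p = 0.0159) and Nfkb1 (0.57 ± 0.09, adjusted p = 0.00027) were the others called. Between RCV and CTL none was called by edgeR, DESeq2 or limma-voom, with 2 of 10 at an unadjusted p below 0.05, among them Irf7 (0.88 ± 0.27, adjusted p = 0.331), whose RCV libraries all lay above the CTL libraries. Between CPZ and RCV, Irf7 (1.15 ± 0.24, adjusted p = 0.00797) and Nfkb1 (0.43 ± 0.09, adjusted p = 0.00852) were called.

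**Figure D5:**
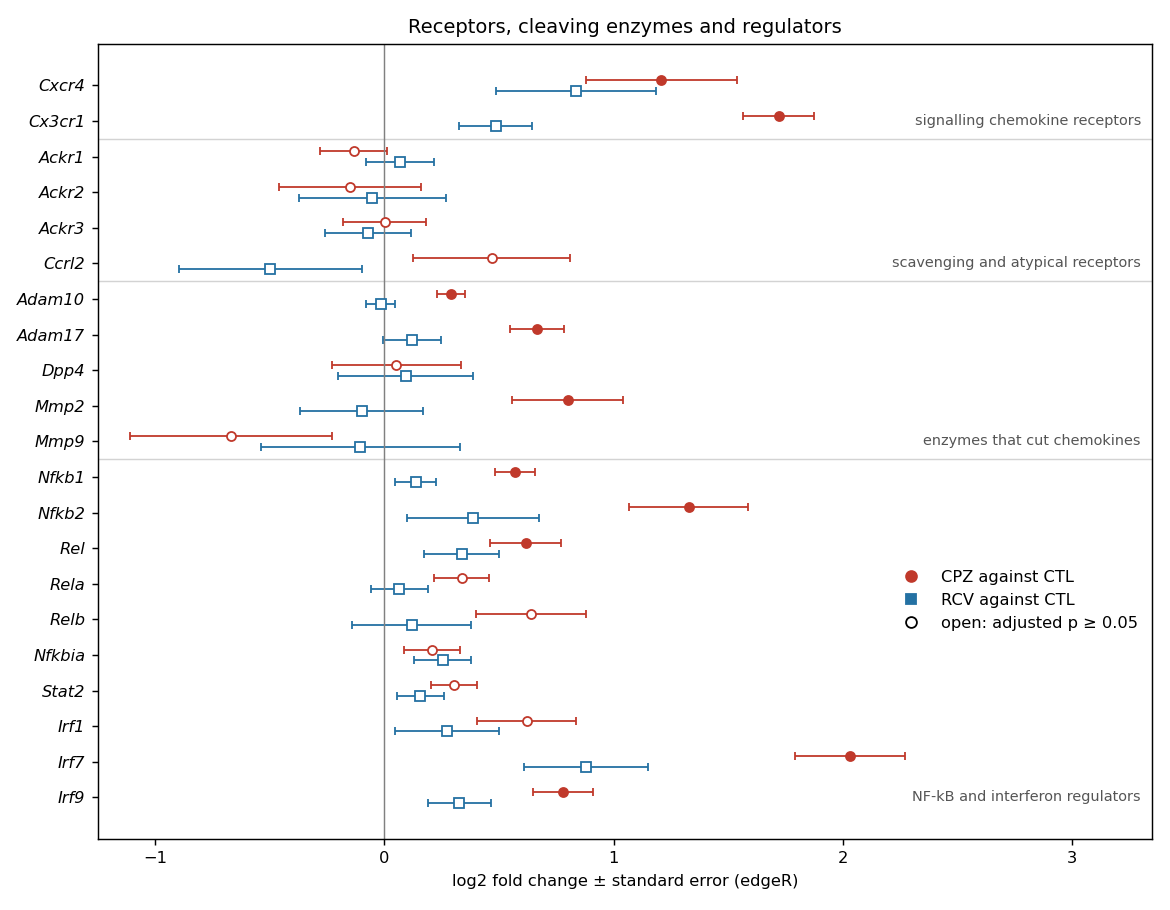
Log2 fold change (horizontal axis) with its standard error for the tested receptors, cleaving enzymes and regulators, for CPZ against CTL (circles) and RCV against CTL (squares). Filled symbols are called at an adjusted p below 0.05: 10 circles, of which 2 are receptors, 3 enzymes and 5 regulators, and no square.

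Most other chemokine ligands were too low to test. Of 28 further ligands, 24 were below the filter on low counts, and of the 4 tested (Ccl25, Ccl27a, Ccl28 and Cxcl14) none was called by edgeR, DESeq2 or limma-voom or reached an unadjusted p below 0.05 in any comparison. Ccl27a, at 203 TPM in CTL and 201 TPM in CPZ, and Cxcl14, at 77.2 and 74.3 TPM, were the highest of them. Below the filter, and named after their values were seen, Cxcl5 held 1 to 4 counts in CTL, 8 to 17 in CPZ and 1 to 2 in RCV, Ccl5 held 0 to 1, 4 to 7 and 1 to 5, and Cxcl9 held 0, 2 to 7 and 0 to 2. Without the filter, 3 of the further ligands were called between CPZ and CTL.

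The genes most alike each ligand over the 13 libraries were picked by Pearson's r of log2-CPM, a description in which the group differences and the libraries are shared by all genes. They were Tlr2, Ctss and Klhl6 for Ccl3 (r = 0.983 to 0.982), C3ar1, Gpnmb and Ifi207 for Ccl4 (0.980 to 0.972), Myo1f, AU020206 and C1qa for Ccl6 (0.995 to 0.988) and Itgb2, Tyrobp and Trem2 for Ccl9 (0.984 to 0.980). For Ccl12 they were Fcgr2b, Hcar2 and B2m (0.978 to 0.974), for Cxcl10 Tgfbr1, Lpl and Arhgap9 (0.972 to 0.967) and for Cxcl16 Cntf, Tnfaip8l2 and Mcm2 (0.949 to 0.940). Cxcl12, with Yes1, Ing1 and Mark1 (0.880 for the first), and Cx3cl1, with Suv39h2, Dusp3 and Tspan5 (0.909 to 0.891), had partners with lower r.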

How the data were processed

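Bulk RNA of brain hemispheres was measured in 13 libraries (5 CTL, 4 CPZ and 4 RCV), grouped by the labelled treatment. The authors deposited estimated counts per gene (expected counts, not scaled to depth) and TPM values, made with STAR and RSEM on mm10 per the submitters' processing notes, without versions. Of the count values, 32082 were not whole, and all were rounded. The 92 spike-in rows held 0 counts and were left out. Of 55401 gene rows, 54349 matched the GENCODE annotation by identifier and version, the 10 ligands included.

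The 14985 genes that passed filterByExpr entered 1 edgeR 4.0.16 fit (R 4.3.3) over all 13 libraries, with TMM factors, robust dispersions and quasi-likelihood F tests, and p-values were adjusted by Benjamini-Hochberg over all of them. Log2-CPM used a prior count of 2. For Ccl2 and for levels relative to microglia markers, two-sided exact permutation tests were used, whose smallest p is 0.0159 for 4 against 5 and 0.0286 for 4 against 4. Counting intervals are exact at 95% and cover counting error only. A group with 0 counts was bounded at 3 counts over the group. The fit was tested on simulated counts. Motifs were searched in RefSeq promoters with Python 3.11.15, and protein sequences were not used here.

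The ligands and the gene lists were chosen with earlier results of these data known. Named genes are the 10 ligands, the called members of a list and up to 4 others by level, and the 3 most alike genes per ligand. The lists are microglia, blood monocyte, border macrophage, T cell, neutrophil, astrocyte, neuron, endothelial and mural, leptomeninges, choroid plexus, hippocampus and oligodendrocyte markers, and the receptors, enzymes, regulators and further ligands given in the text. Alternatives were DESeq2 1.42.0 (its size factors, and its Wald test), limma-voom (limma 3.58.1), limma on TPM (pseudocount 1 with and without a floor of 1 TPM in 4 libraries, or pseudocount 0.1), no count filter, a fit of only the 2 groups compared, a replicate block and each library left out. For levels relative to the markers they were the median over the markers, log2(TPM + 0.1) and, chosen after seeing the data, an adjustment without Cxcl12 and Cx3cl1. Pairs of libraries within a group had a chi-square per gene between 4.50 and 17.8, well over sampling noise, and each library was counted on its own. Single-nucleus and spatial data were not used here, and 3 genes of the lists are not reported here.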

Additional observations from a re-analysis of the deposited data

Results flagged for a closer look

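In RCV, replicate 2 was the only library with a count on Ccl2 (1 count, 0.162 CPM) and the other 3 RCV libraries held 0. It stood apart from its group by Dixon's criterion, which was applied to 29 pairs of ligand and group and met by 1. Chance flags about 1 in 20 groups, and a single count cannot be told from counting error.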

How the results depend on the processing

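No called value changed sign under the 22 alternatives to the edgeR fit. The 7 calls between CPZ and CTL became at most 8 and never fewer than 7. Between CPZ and RCV the count was 5 to 8, and 6 or 7 with a library left out, except for limma on log2(TPM + 0.1), which called 3. Between RCV and CTL it was 5 with the DESeq2 Wald test, 3 with limma on log2(TPM + 1), 0 with limma-voom and 0 with limma on log2(TPM + 1) without its filter, against 1 in the report, and leaving out 1 library gave 0 to 2 calls. Without the filter on low counts the 1 call was Ccl9 and not Ccl6. The cause of these shifts was not tested.

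Over all genes, 54 were called higher and 2 lower between RCV and CTL. In all, 131 were called by the DESeq2 Wald test and 16 by limma-voom, and 21 (without RCV replicate 2) to 87 (without CPZ replicate 3) with a library left out. Between CPZ and CTL, 1148 were higher and 374 lower, against 993 calls by limma on log2(TPM + 1) without its filter. Between CPZ and RCV, 769 were higher and 281 lower, against 477 to 584 calls by limma on TPM, 632 without CPZ replicate 1 and 693 without CPZ replicate 2.

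With the replicate number as a block, 2 ligands (Ccl3 and Ccl6) were called between RCV and CTL, 1 of the 2 receptors was called between CPZ and CTL, and the Cxcl16 call between CPZ and RCV was lost. The numbers were not taken to pair the libraries, since deviations of libraries with the same number correlated between -0.24 and 0.19 across genes.

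Levels relative to the microglia markers did not pass with any library left out, nor when adjusted without Cxcl12 and Cx3cl1. The exact test has few possible p-values, and its smallest rises when a group loses a library. These losses thus do not show a dependence on any library. Between CPZ and CTL the differences ran from 1.66 to 2.04 for Ccl3, 1.88 to 2.12 for Ccl6 and 0.66 to 0.91 for Ccl9 with a library left out. Depth limits the low ligands most: RCV libraries held 0 to 7 counts on Ccl2, Ccl4 and Ccl12.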
